A study of Medicago truncatula with 24 samples.

Results

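Some places in the genome of the *Medicago truncatula* embryo carried acetylated histone H3 (H3ac) early in seed maturation. They had no peak of trimethylated lysine 27 of histone H3 (H3K27me3) at that stage and temperature, but lay under one later on. They are described here as later-marked peaks. A peak of an H3ac list on chromosomes 1 to 8 was taken when it overlapped no H3K27me3 peak of its own stage and temperature by 1 bp or more, and did overlap an H3K27me3 peak of S3 or S4 at the same temperature. Of 6620 H3ac peaks, 951 met the rule, or 14.4%. The remaining peaks were either co-marked, with an H3K27me3 peak of the same stage and temperature (868 peaks), or had no H3K27me3 at their own stage or at S3 and S4 of their temperature (4801 peaks, called unmarked). Because the overlaps themselves chose the peaks, their numbers are a description and were not tested.

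The embryos were of the line A17, from plants kept at 26°C by day and 24°C by night or at 20°C by day and 18°C by night once they flowered. At 26°C the stages S1, S2, S3 and S4 fell 14, 17, 22 and 28 days after pollination, and 17, 26, 36 and 44 days after it in plants at 20°C. H3K27me3 was profiled by chromatin immunoprecipitation and sequencing (ChIP-seq) at all 4 stages and H3ac at S1 and S2, so an H3ac peak at S3 or S4 was not measured. Each mark, stage and temperature had 1 antibody (IP) library and 1 INPUT library made from pooled embryos, 24 libraries in all, and although the series record mentions 2 replicates for H3ac, no spread between replicates could be estimated. The intervals given are exact 95% Clopper-Pearson intervals on numbers of peaks and cover counting error only.

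Acetylation of the tail of histone H3 is a mark of open chromatin and is typical of the start of transcribed genes. H3K27me3 is laid down by Polycomb repressive complex 2 and is typical of silent developmental genes, and in seeds it is known for switching off genes that belong to another phase of development. The same lysine cannot be acetylated and trimethylated on 1 histone tail, but an antibody against acetylated H3 also reads other lysines, and a pool of embryos holds many cell types, so both marks can be found at 1 place. In these embryos desiccation tolerance is acquired between the early stages, and longevity in the last part of maturation.

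The lists differed in size, which bears on every count. The H3ac lists held 530 peaks for S2 at 26°C, 786 for S1 at 26°C, and at 20°C 928 for S2 and 4376 for S1. The list of S1 at 20°C stood apart, with a median peak length of 388 bp, against 839 to 1792 bp in the other lists. The H3K27me3 lists of S1, S2, S3 and S4 covered 8.08, 7.999, 7.13 and 6.92 Mb at 26°C. At 20°C they covered 7.61, 4.31, 3.26 and 3.42 Mb. A peak list holds no read counts, so the depth behind each peak is unknown, and the absence of a peak means only that none passed the authors' threshold.

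At 26°C, later-marked peaks made up a larger share of the H3ac lists than at 20°C. They were 180 of 530 H3ac peaks (34.0%, interval 29.9% to 38.2%) for S2 at 26°C and 295 of 786 (37.5%, 34.1% to 41.0%) for S1 at 26°C. At 20°C they were 149 of 928 (16.1%, 13.8% to 18.6%) for S2 and 327 of 4376 (7.47%, 6.71% to 8.29%) for S1. The temperatures do not overlap in these shares, but the late H3K27me3 lists of 26°C also covered more of the genome than those of 20°C. When only the strongest 862 peaks of each H3K27me3 list were used, the share at 26°C was 16.8% for S2 and 21.5% for S1, against 19.7% for S2 and 8.11% for S1 of the 20°C lists, so the order of the temperatures was kept at S1 and turned round at S2. With 1 library per condition, temperature and library cannot be told apart. Co-marked peaks were 111, 164, 336 and 257 of the lists of S2 at 26°C, S1 at 26°C, S2 at 20°C and S1 at 20°C.

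**Figure D1:**
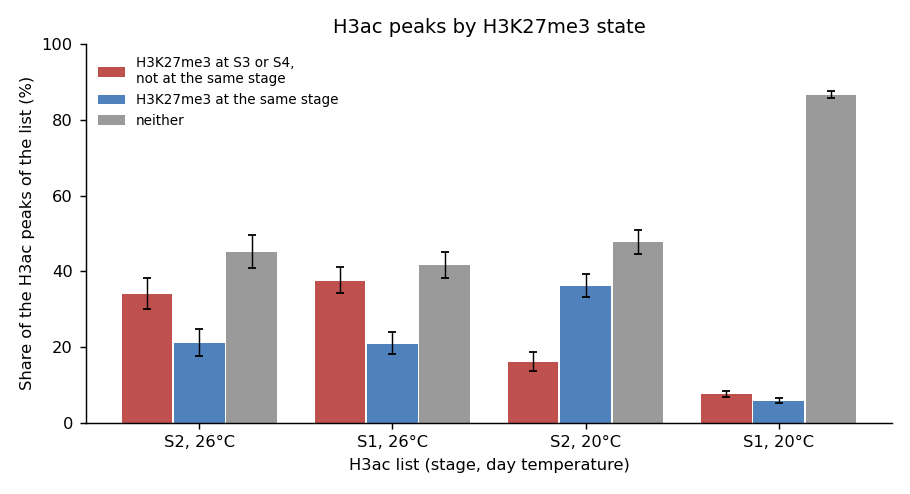
Share of the H3ac peaks of each list (vertical axis, %) that were later-marked (red), co-marked (blue) or unmarked (grey), with exact 95% intervals of counting error. The red bars stand at 34.0% and 37.5% for S2 and S1 at 26°C, and at 16.1% and 7.47% for S2 and S1 at 20°C.

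H3K27me3 over these peaks was listed at S4 more often than at S3 at 26°C. At 26°C, 89 of the 180 later-marked peaks of S2 lay under an H3K27me3 peak of S4 only, 36 under S3 only and 55 (30.6%) under both. For S1 at 26°C these numbers were 109, 43 and 143 (48.5%). At 20°C the peaks of S2 were about evenly split, with 58 under S4 only, 53 under S3 only and 38 (25.5%) under both, and for S1 at 20°C S3 prevailed, with 92 under S4 only, 133 under S3 only and 102 (31.2%) under both. Co-marked peaks had the same order of the 2 stages in each list, so it was not particular to later-marked peaks. At 26°C, 85.6% of co-marked S2 peaks were under H3K27me3 of S4 and 78.4% under S3, and 87.8% and 78.7% of S1 peaks. At 20°C these shares were 67.6% and 66.4% for S2, and 40.1% and 45.1% for S1. In all, 338 of the 951 later-marked peaks had H3K27me3 at both late stages. Where both were listed, the median fold enrichment of H3K27me3 over INPUT differed little between the stages, at 2.98 for S4 and 2.91 for S3 over the peaks of S2 at 26°C, 3.04 and 2.98 over those of S1 at 26°C, 2.47 and 2.53 over those of S2 at 20°C, and 2.75 and 2.65 over those of S1 at 20°C.

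Most of these overlaps were more than a touch of 2 peak edges. The H3ac summit, the position of the highest pile-up in the peak, lay under a late H3K27me3 peak in 120 of the 180 later-marked peaks of S2 at 26°C (66.7%), 242 of 295 for S1 at 26°C (82.0%), 103 of 149 for S2 at 20°C (69.1%) and 266 of 327 for S1 at 20°C (81.3%). Over all H3ac peaks of the same lists the shares were 38.5%, 48.3%, 35.6% and 8.68%, which differ from those of the later-marked peaks by the rule itself. In all, the summit was covered in 731 of 951 later-marked peaks (76.9%), against 19.5% of all H3ac peaks. At least 0.5 of the peak was covered in 685 of the 951, and the whole peak in 416. Near the threshold of the rule, 72 overlapped late H3K27me3 by less than 200 bp (the smallest overlap was 2 bp), and 81 had an H3K27me3 peak of their own stage and temperature within 1 kb. Just outside it, 226 unmarked peaks had a late H3K27me3 peak within 1 kb, the nearest 1 bp away, and 63 co-marked peaks overlapped H3K27me3 of their own stage by less than 200 bp.

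The other early stage of the same temperature was not used to choose the peaks. For those of S1 it is the stage that follows, S2. Of the later-marked S1 peaks, 82 of 295 at 26°C (27.8%, interval 22.8% to 33.3%) and 136 of 327 at 20°C (41.6%, 36.2% to 47.1%) were already under H3K27me3 at S2. Over all H3ac peaks of these lists the shares were 26.7% at 26°C and 7.82% at 20°C. At 26°C the later-marked peaks were thus near the share of their whole list, in which co-marked peaks had 67.1% and unmarked peaks 5.50%. At 20°C they were near the co-marked peaks (44.0%) and above the unmarked ones (2.45%).

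For the later-marked peaks of S2 the other early stage is the one before, S1. Of these, 24 of 180 at 26°C (13.3%, 8.73% to 19.2%) and 11 of 149 at 20°C (7.38%, 3.74% to 12.8%) had been under H3K27me3 at S1, against 16.6% of all H3ac peaks of S2 at 26°C and 16.7% at 20°C. Among co-marked peaks of S2 the shares were 45.0% at 26°C and 37.8% at 20°C, and among unmarked ones 5.86% and 3.84%. Later-marked peaks of S2 thus lay between the other classes, above the unmarked ones.

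Part of the later-marked S1 peaks overlapped H3ac peaks of S2, also where H3K27me3 had been listed by then. At 26°C, 41 of the 82 with H3K27me3 at S2 (50.0%) overlapped an H3ac peak of S2, against 64 of the 213 without it (30.0%). At 20°C this held for 84 of 136 (61.8%), against 41 of 191 without H3K27me3 at S2 (21.5%). At these places both marks were thus listed at S2. Whatever the H3K27me3 at S2, an H3ac peak of S2 met 35.6% of later-marked, 54.9% of co-marked and 13.1% of unmarked S1 peaks at 26°C. At 20°C these shares were 38.2%, 35.0% and 2.45%, so the overlap was not particular to later-marked peaks. With or without H3K27me3 over the S1 peak itself at S2, 125 later-marked S1 peaks at 20°C overlapped an H3ac peak of S2, of which 94 met a co-marked one and 29 a later-marked one. At 26°C these were 105, 48 and 57, and an S1 peak can meet several S2 peaks.

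The H3K27me3 lists of the other temperature were also not used by the rule, and they met most of the same places. Among later-marked peaks, 139 of 180 of S2 at 26°C (77.2%) overlapped an H3K27me3 peak of any stage at 20°C, and 197 of 295 of S1 at 26°C did (66.8%). Of those at 20°C, 117 of 149 of S2 (78.5%) and 260 of 327 of S1 (79.5%) overlapped H3K27me3 at 26°C. Over all H3ac peaks of the 4 lists in the same order the shares were 55.3%, 51.7%, 63.5% and 24.5%. The difference between later-marked and all other H3ac peaks was 33.7 percentage points on average (SD 18.3 over 4 lists), higher in 4 of 4 lists, with an exact two-sided sign-flip permutation p of 0.125, which is the smallest that 4 lists allow, and 0.438 after Benjamini-Hochberg adjustment over 7 properties. The 4 lists are different conditions and not replicates, and those of 1 temperature were set against the same H3K27me3 lists.

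The 2 other classes differed from each other in this respect. Unmarked peaks had 22.2%, 19.6%, 38.8% and 16.8% under H3K27me3 of the other temperature for S2 and S1 at 26°C and S2 and S1 at 20°C, whereas co-marked peaks had 91.0%, 88.4%, 89.3% and 68.5%. Later-marked peaks were thus below co-marked ones in 3 of 4 lists, with an average difference of −8.78 points (SD 13.98, exact sign-flip permutation test over 4 lists, p = 0.375). Since a longer peak meets any list more easily, the comparison was repeated for H3ac peaks under 1000 bp. There later-marked peaks exceeded all others by 37.0 points (SD 16.0), again in 4 of 4 lists.

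At the other temperature, too, H3K27me3 over these places was listed less often at S1 than later, although the S1 list covered the most DNA at each temperature. The later-marked peaks of S2 at 26°C were under H3K27me3 of 20°C in 7.22%, 46.7%, 41.7% and 54.4% of cases at S1 to S4, and those of S1 at 26°C in 10.8%, 46.4%, 42.4% and 44.7%. The later-marked peaks of S2 at 20°C were under H3K27me3 of 26°C in 18.8%, 25.5%, 47.0% and 59.7% at S1 to S4, and those of S1 at 20°C in 18.3%, 25.7%, 51.4% and 60.6%. The largest rise was thus at S2 of 20°C and at S3 of 26°C. Co-marked peaks also rose at S2 of 20°C, from 38.7% to 79.3% for S2 at 26°C and from 49.4% to 77.4% for S1 at 26°C. With 862 peaks per H3K27me3 list, later-marked peaks still rose from S3 to S4 of 26°C. Their shares were 4.03% and 16.8% for S2 at 20°C, and 13.5% and 26.0% for S1 at 20°C. With all peaks, the share of later-marked peaks at S4 exceeded that at S1 by 41.1 points on average (SD 5.49), in 4 of 4 lists (exact sign-flip permutation test, p = 0.125, the smallest possible). The same step was smaller among the other H3ac peaks in 4 of 4 lists, by 24.2 points (SD 12.3, exact p = 0.125). With 862 peaks in every H3K27me3 list, a setting added after seeing the data, the step was 34.1 points (SD 17.5), and it exceeded that of the other H3ac peaks in 3 of 4 lists, by 17.0 points (SD 14.2, exact p = 0.25). The step was not particular to later-marked peaks. Among co-marked peaks alone it was 38.7, 23.2, 44.9 and 10.9 points for S2 and S1 at 26°C and S2 and S1 at 20°C, against 47.2, 33.9, 40.9 and 42.2 points for later-marked ones, and with 862 peaks per list it was larger among co-marked peaks in 3 of 4 lists.

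**Figure D2:**
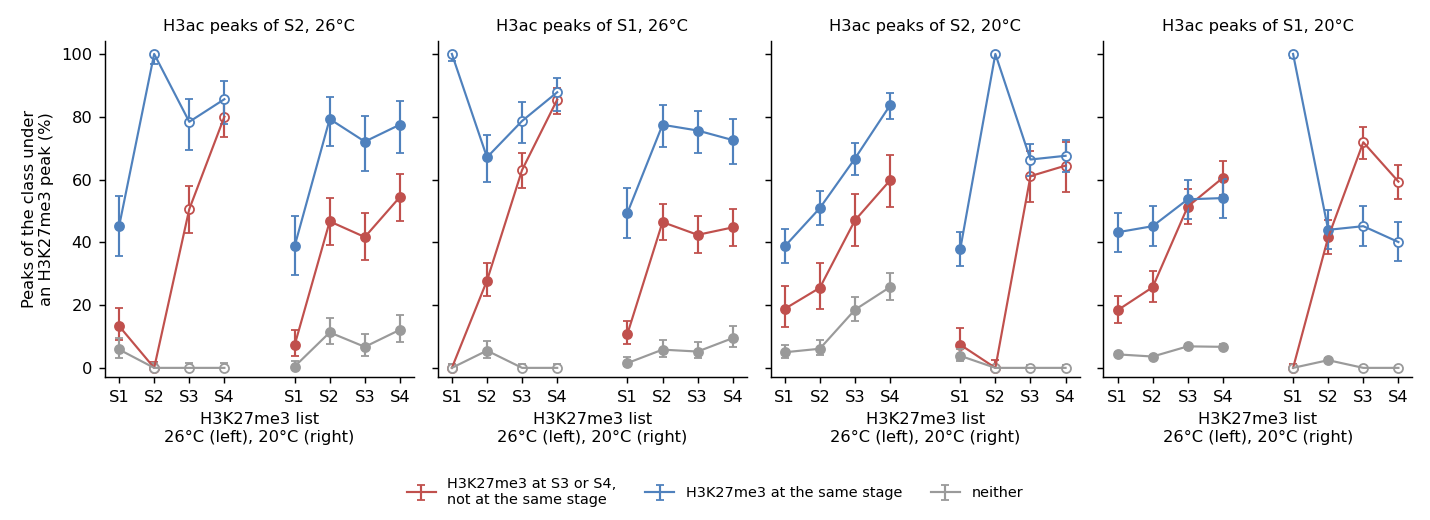
Share of each class of H3ac peaks (vertical axis, %) under an H3K27me3 peak of S1 to S4 at 26°C (left of each panel) and 20°C (right), with 1 panel for each H3ac list and exact 95% intervals of counting error. Open circles are H3K27me3 lists that the rule used and filled circles lists that it did not use, among which the later-marked peaks (red) of the 26°C lists are at 7.22% and 10.8% at S1 of 20°C and at 54.4% and 44.7% at S4.

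The late H3K27me3 peaks over later-marked H3ac peaks were longer than those over no H3ac peak and shorter than those over co-marked peaks. At 26°C, 277 of the 4390 H3K27me3 peaks of S4 (6.31%) and 230 of the 6448 of S3 (3.57%) lay over one. At 20°C these were 221 of 862 of S4 (25.6%) and 272 of 1455 of S3 (18.7%). Their median length at S4 was 2119 bp at 26°C and 2260 bp at 20°C, against 486 and 893 bp for H3K27me3 peaks over no H3ac peak. At S3 the medians were 1104 bp at 26°C and 1099 bp at 20°C, against 432 and 491 bp. The fold enrichment did not set them apart, with medians at S4 of 2.82 at 26°C and 2.52 at 20°C, against 2.73 and 2.51. For each H3ac peak with late H3K27me3, the longest late peak over it had a median of 2825 bp among the 951 later-marked peaks and 10387 bp among 643 co-marked ones. A longer peak overlaps another list more easily, so the length is partly given by the rule.

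Later-marked peaks overlapped the other H3ac lists in 145 of 180 peaks for S2 at 26°C (80.6%), 204 of 295 for S1 at 26°C (69.2%), 77 of 149 for S2 at 20°C (51.7%) and 152 of 327 for S1 at 20°C (46.5%). Over all H3ac peaks the shares were 64.3%, 56.6%, 51.5% and 9.41%. In all, 578 of the 951 did so (60.8%), against 25.3% of all H3ac peaks. The difference from the other H3ac peaks averaged 21.2 points (SD 16.4, higher in 4 of 4 lists, exact sign-flip permutation p = 0.125, adjusted 0.438), but it was 0.202 points for S2 at 20°C and 40.1 points for S1 at 20°C. Without the list of S1 at 20°C it was 14.9 points (SD 12.96 over 3 lists). The large value for S1 at 20°C stands beside the 4.27% of its 3792 unmarked peaks that were met in another H3ac list.

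The strength of H3ac differed between later-marked and other peaks by less than its spread over the lists. The median fold enrichment of later-marked peaks was 2.85, 3.20, 3.17 and 3.14 for S2 and S1 at 26°C and S2 and S1 at 20°C, against 2.90, 3.07, 3.17 and 3.14 for the other peaks. The average difference was 0.0207 (SD 0.0780, exact sign-flip permutation p = 1). Single peaks ranged widely, with a fold enrichment of 1.10 to 23.1 over the 951. Among the later-marked peaks, a q-value no higher than 0.05 was found for 43.9%, 58.3%, 61.7% and 40.4%, against 46.4%, 55.7%, 66.7% and 41.0% of all peaks of these lists, so a large part of them rests on weak peaks. Among co-marked peaks the share at that q-value was higher in each list, at 70.3%, 64.0%, 82.4% and 56.8%. Among unmarked peaks it was 37.2%, 49.2%, 56.4% and 40.0%. The H3ac lists begin at a −log10 p of 2.01 to 2.07.

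In length the later-marked peaks lay between the other classes. Their medians were 2179.5, 1015, 996 and 528 bp for S2 and S1 at 26°C and S2 and S1 at 20°C, against 3971, 4389, 3182 and 534 bp for co-marked peaks and 1117, 629, 817 and 380 bp for unmarked peaks. They were shorter than co-marked peaks in 4 of 4 lists and longer than unmarked ones in 4 of 4 (exact sign-flip permutation test over lists, p = 0.125 for each, adjusted 0.292). Against both classes together the difference was 227.5 bp (SD 273), with 3 of 4 lists higher (exact p = 0.25, adjusted 0.438). Among H3ac peaks under 1000 bp it was 33.25 bp (SD 39.8), again with 3 of 4 lists higher. A longer peak meets an overlap rule more easily, so the order of the classes in length is partly given by the rule. The longest later-marked peak had 20903 bp.

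**Figure D3:**
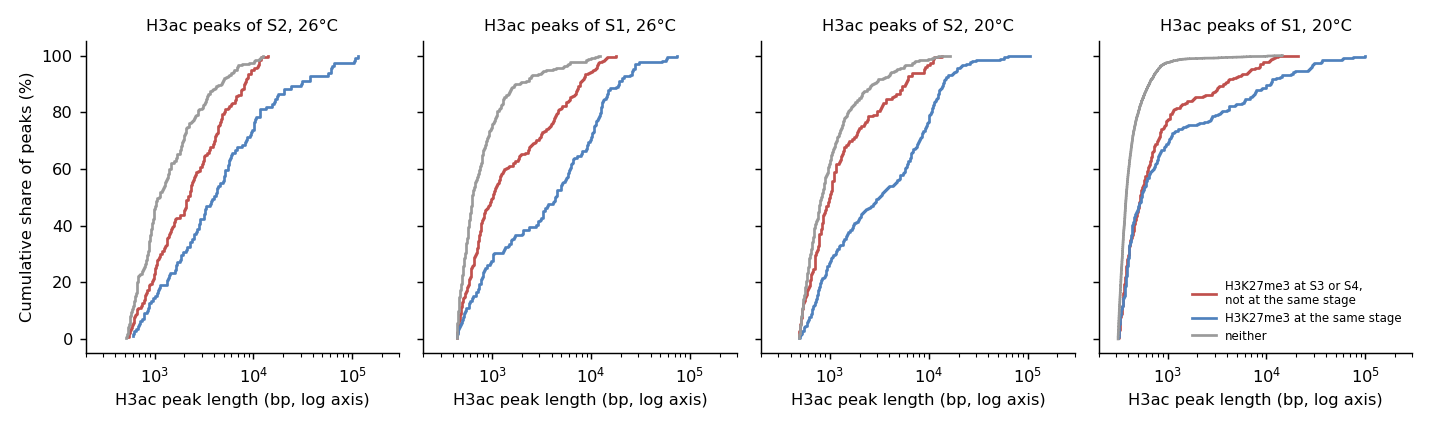
Cumulative share of H3ac peaks (vertical axis, %) by peak length (horizontal log axis, bp) for later-marked (red), co-marked (blue) and unmarked (grey) peaks, with 1 panel for each H3ac list. The red curves lie between the others in the 26°C lists, with medians of 2179.5 bp at S2 and 1015 bp at S1, and in the list of S1 at 20°C the red and blue curves meet at medians of 528 and 534 bp.

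Few later-marked peaks were in annotated genes. An overlap with a gene span was found for 28 of 180 for S2 at 26°C (15.6%, interval 10.6% to 21.7%), 39 of 295 for S1 at 26°C (13.2%, 9.57% to 17.6%), 20 of 149 for S2 at 20°C (13.4%, 8.40% to 20.0%) and 41 of 327 for S1 at 20°C (12.5%, 9.15% to 16.6%). The same shares over all H3ac peaks were 15.8%, 17.7%, 12.2% and 42.7%. The later-marked peaks were thus nearly alike across the 4 lists, whereas the list of S1 at 20°C as a whole had a much larger genic share. A protein-coding gene was overlapped by 15, 16, 11 and 27 of the later-marked peaks, or 8.33%, 5.42%, 7.38% and 8.26%, against 8.49%, 9.92%, 6.47% and 38.8% of all H3ac peaks. The difference from the other peaks of each list in the share overlapping any gene was −9.67 points on average (SD 15.7, lower in 3 of 4 lists, exact sign-flip permutation p = 0.375, adjusted 0.525) and −2.04 points (SD 4.53) without that list. Against co-marked peaks alone it was −13.9 points (SD 9.97, lower in 4 of 4 lists, exact p = 0.125, adjusted 0.292), a comparison added after seeing the data.

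**Figure D4:**
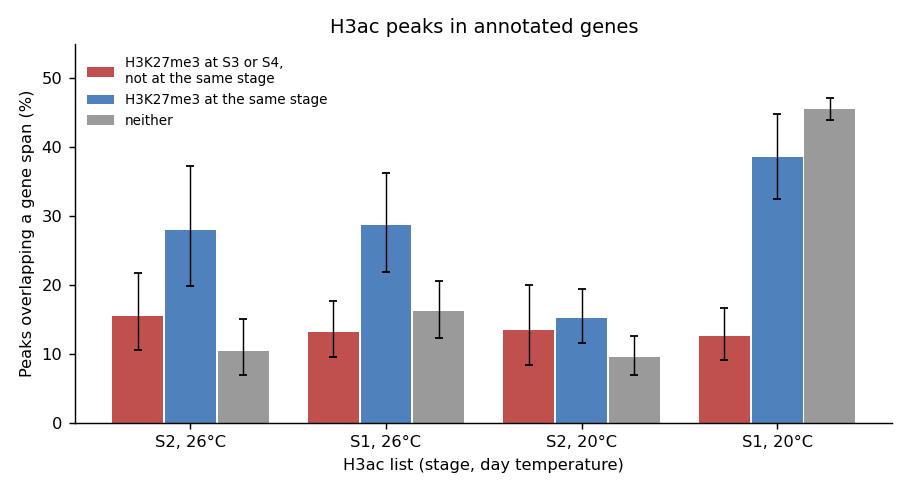
Share of H3ac peaks overlapping a gene span (vertical axis, %) for later-marked (red), co-marked (blue) and unmarked (grey) peaks of each list, with exact 95% intervals of counting error. Red bars range from 12.5% to 15.6%, and the grey bar of S1 at 20°C reaches 45.5%.

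Most of the later-marked peaks lay kilobases from a gene. With peaks in a gene counted as 0, the median distance to the nearest gene was 10336 bp for S2 at 26°C, 10242 bp for S1 at 26°C, and at 20°C 10809 bp for S2 and 9762 bp for S1. The unmarked peaks of S1 at 20°C, in contrast, had a median distance of 634 bp, and those of the other lists 8028 to 10477 bp. Co-marked peaks had median distances of 7324 and 7471 bp for S2 and S1 at 26°C, and 12469 and 2157 bp for S2 and S1 at 20°C. Within 50 kb of a later-marked peak there were 2, 2, 2 and 3 protein-coding genes in the median. The medians were 2, 2, 2 and 5 for co-marked peaks and 2, 4, 2 and 8 for unmarked ones. In the 3 kb beside a gene, but not in one, lay 5.00%, 9.49%, 10.7% and 11.9% of the later-marked peaks, against 11.9%, 11.8%, 8.19% and 19.1% of all H3ac peaks of these lists. The difference from the other peaks was −4.71 points (SD 5.85, lower in 3 of 4 lists, exact sign-flip permutation p = 0.25, adjusted 0.438).

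By chromosome, the 951 peaks numbered 102, 137, 89, 143, 53, 152, 172 and 103 on chromosomes 1 to 8. In the same order, they made up 12.7%, 15.7%, 10.5%, 13.6%, 10.04%, 19.1%, 16.7% and 14.7% of the H3ac peaks of each chromosome. Over all chromosomes used the share was 14.4%. These differences between chromosomes were not tested. Where the 4 lists overlapped, they shared DNA, and merging them left 724 places of 1.75 Mb in all, with a median of 848.5 bp. Of these, 590 were later-marked in 1 list, 102 in 2, 29 in 3 and 3 in all 4. At 26°C only there were 300, at 20°C only 333, and at both temperatures 91. A co-marked peak of another H3ac list was found at 242 places (33.4%), and late H3K27me3 at both temperatures at 461 (63.7%). In 332 places (45.9%) neither S1 nor S2 had H3K27me3 at either temperature. These counts were not made for merged places of all H3ac peaks, so they cannot be read as particular to later-marked ones. Of all H3ac peaks, 25.3% overlapped another H3ac list, and of the later-marked ones 60.8%. By list, the shares of all H3ac peaks were 64.3% for S2 at 26°C, 56.6% for S1 at 26°C and 51.5% for S2 at 20°C. The list of S1 at 20°C, with 9.41% and the most peaks, lowered the pooled share.

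The 3 places found in all 4 lists show the pattern with every value listed. On chromosome 4 (21392386 to 21401948, assembly MtrunA17r5.0), 14788 bp from the nearest gene, H3ac reached a fold enrichment of 3.51 for S2 at 26°C, 4.39 for S1 at 26°C, and at 20°C 4.23 for S2 and 2.36 for S1. H3K27me3 was listed there at S3 (3.56) and S4 (2.87) at 26°C and at S2 (2.29) and S4 (2.95) at 20°C, and not at S1, so that co-marked and later-marked S2 peaks of 20°C lay side by side. On chromosome 6 (14335549 to 14344454), 10809 bp from a gene, H3ac was at 2.23, 2.89, 7.05 and 3.34 for S2 and S1 at 26°C and S2 and S1 at 20°C. H3K27me3 was confined there to the 4 late lists, at 3.13 and 3.35 for S3 and S4 of 26°C, and at 2.63 and 2.45 for S3 and S4 of 20°C. The third place, on chromosome 1 (13509408 to 13524098), held the long non-coding RNA gene LOC25482771. It had H3ac at 3.05, 4.49, 3.88 and 3.77 and an H3K27me3 peak in 7 lists, all but S1 at 26°C, and so had co-marked peaks beside later-marked ones. A place on chromosome 8 (23438760 to 23447223) was later-marked in 3 lists, with H3ac at 3.11, 4.25, 3.99 and 3.00 in the same order. There H3K27me3 was absent at S1 and listed from S2 on, at 3.19, 3.51 and 3.49 at 26°C and at 2.52, 2.08 and 2.52 at 20°C.

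The strongest single peaks were chosen by the lower of their H3ac and late H3K27me3 fold enrichment. For S1 at 26°C the first was on chromosome 8 (20552711 to 20564001), with H3ac at 6.62 and H3K27me3 at 3.01 at S2, 3.92 at S3 and 6.24 at S4 of 26°C, and none listed at S1. At 20°C H3K27me3 was listed there at all 4 stages, at 3.02, 3.27, 2.92 and 2.61. For S1 at 20°C the first was on chromosome 5 (23234903 to 23241429), 86249 bp from a gene, with H3ac at 5.67 and H3K27me3 at 4.63 at S2, 4.15 at S3 and 5.12 at S4. For S2 at 20°C a peak of 1153 bp on chromosome 4 (12620290 to 12621442) had H3ac at 4.17 and H3K27me3 at 4.08 at S3 and 3.67 at S4, with 1.94 at S1. For S2 at 26°C a peak on chromosome 2 (24406156 to 24408253) had H3ac at 4.23 and H3K27me3 at 2.51 at S3 and 3.88 at S4.

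Genes under later-marked peaks numbered 32 for S2 at 26°C, 82 for S1 at 26°C, and at 20°C 21 for S2 and 92 for S1, with 164 in all. Of the 164, 47 were protein-coding (28.7%), 84 rRNA genes, 14 snoRNA genes, 12 pseudogenes and 7 genes of long non-coding RNA. Under all H3ac peaks, 1734 of 2536 genes were protein-coding (68.4%), and in the annotation 80.8%. The same 2536 held 559 rRNA genes, 45 snoRNA genes, 119 pseudogenes and 65 genes of long non-coding RNA. The pooled contrast rested on S1 at 20°C, where 23.9% of the genes under later-marked peaks were protein-coding, against 72.5% of those under all H3ac peaks. In the other lists the share was higher under later-marked peaks, at 31.25% against 6.33% for S2 at 26°C, 15.9% against 13.3% for S1 at 26°C and 57.1% against 8.96% for S2 at 20°C. Of the genes under all H3ac peaks of these lists, rRNA genes made up 516 of 632, 371 of 498 and 478 of 603. Counted by peak, 8.33%, 5.42% and 7.38% of the later-marked peaks met a protein-coding gene, against 8.49%, 9.92% and 6.47% of all H3ac peaks. The 84 rRNA genes lay under 16 peaks, as copies standing close together. A single place on chromosome 4 (19273380 to 19277500) held 13 of them, with H3ac at 3.25, 4.39, 2.70 and 2.58 for S2 and S1 at 26°C and S2 and S1 at 20°C and no H3K27me3 listed at S1. Its late H3K27me3 was 3.53 and 5.72 for S3 and S4 of 26°C, and 4.07 and 3.72 for those of 20°C. At S2 it was already listed, at 3.15 at 26°C and 4.36 at 20°C. Reads of near-identical copies cannot be placed with certainty, so these values are uncertain. Within 100 kb of an rRNA gene lay 2.78%, 3.39%, 2.01% and 3.67% of the later-marked peaks, against 2.83%, 4.96%, 4.20% and 1.26% of all H3ac peaks. Over the 4 lists together the share was 3.15% (30 of 951), against 2.24%.

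Of the 47 protein-coding genes, 22 were named by the rule, 8 of them with a later-marked peak in 2 or more lists. The genes are given by RefSeq symbol, since the gene table used here holds no descriptions, and unless stated otherwise each value is the highest of the listed peaks that overlap the gene's later-marked peaks. LOC120575874 on chromosome 6 (7082794 to 7085343) led the list, with 3 later-marked peaks at 20°C. Its H3ac fold enrichment was 2.84 for S2 and 6.53 for S1 at 20°C, with none listed at 26°C. H3K27me3 there was absent from both S1 lists and listed at 4.64, 5.57 and 3.98 at S2, S3 and S4 of 26°C, and at 3.31 and 3.91 at S3 and S4 of 20°C. LOC120577015 on chromosome 7 (20930934 to 20933294) had the same H3K27me3 pattern, with 5.12, 5.03 and 3.18 at S2, S3 and S4 of 26°C and 2.76 and 3.88 at S3 and S4 of 20°C, beside an H3ac peak of 2.82 for S2 at 20°C.

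LOC120577044 on chromosome 7 (27123789 to 27138737) had the most later-marked peaks of the named genes, 6 in 3 lists, of which that of S2 at 20°C covered 13667 bp of the gene. H3ac reached 3.47 for S2 at 26°C, 5.21 for S1 at 26°C and 6.97 for S2 at 20°C, with none listed for S1 at 20°C. H3K27me3 was listed in the late lists alone, at 2.70 and 2.71 for S3 and S4 of 26°C and 2.82 and 2.43 for S3 and S4 of 20°C. LOC112422660 on chromosome 4 (20267632 to 20268867) had 1 later-marked peak, of S2 at 26°C, and none at 20°C. Over that peak H3ac was listed only at S2, at 3.44 at 26°C and 7.05 at 20°C. H3K27me3 was listed over it only at S4, at 3.04 at 26°C and 2.35 at 20°C.

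In the other named genes the pattern was less uniform across lists. LOC11422231 on chromosome 6 (33488594 to 33601294), a gene of 112701 bp, had later-marked peaks in 3 lists with H3ac at 3.07 for S2 and 2.26 for S1 at 26°C and at most 3.29 for S1 at 20°C, and H3K27me3 in 7 of 8 lists, so the later marking holds for single peaks within it. LOC112418186 on chromosome 4 (13748372 to 13777445) likewise had H3K27me3 in 7 lists over its 5 later-marked peaks. LOC120579525 on chromosome 3 (16827178 to 16908618) had the highest H3K27me3 values of the named genes, 18.2, 16.1 and 17.2 at S2, S3 and S4 of 20°C and 15.6 at S4 of 26°C, so at 20°C the high level was already there at S2. Its later-marked H3ac peaks were low in fold enrichment, at 1.11 to 2.51, although their −log10 q reached 97.1. An H3ac peak of S2 at 26°C, at 5.21, overlapped part of them. LOC120576044 on chromosome 6 (22553778 to 22581233) had 1 later-marked peak, of S2 at 26°C. H3ac over it was 3.64, 6.14, 3.17 and 3.14 for S2 and S1 at 26°C and S2 and S1 at 20°C. H3K27me3 of 26°C was listed over it at S1 (4.06), S3 (3.13) and S4 (2.63), so it was highest before S2. No H3K27me3 was listed there at 20°C.

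**Figure D5:**
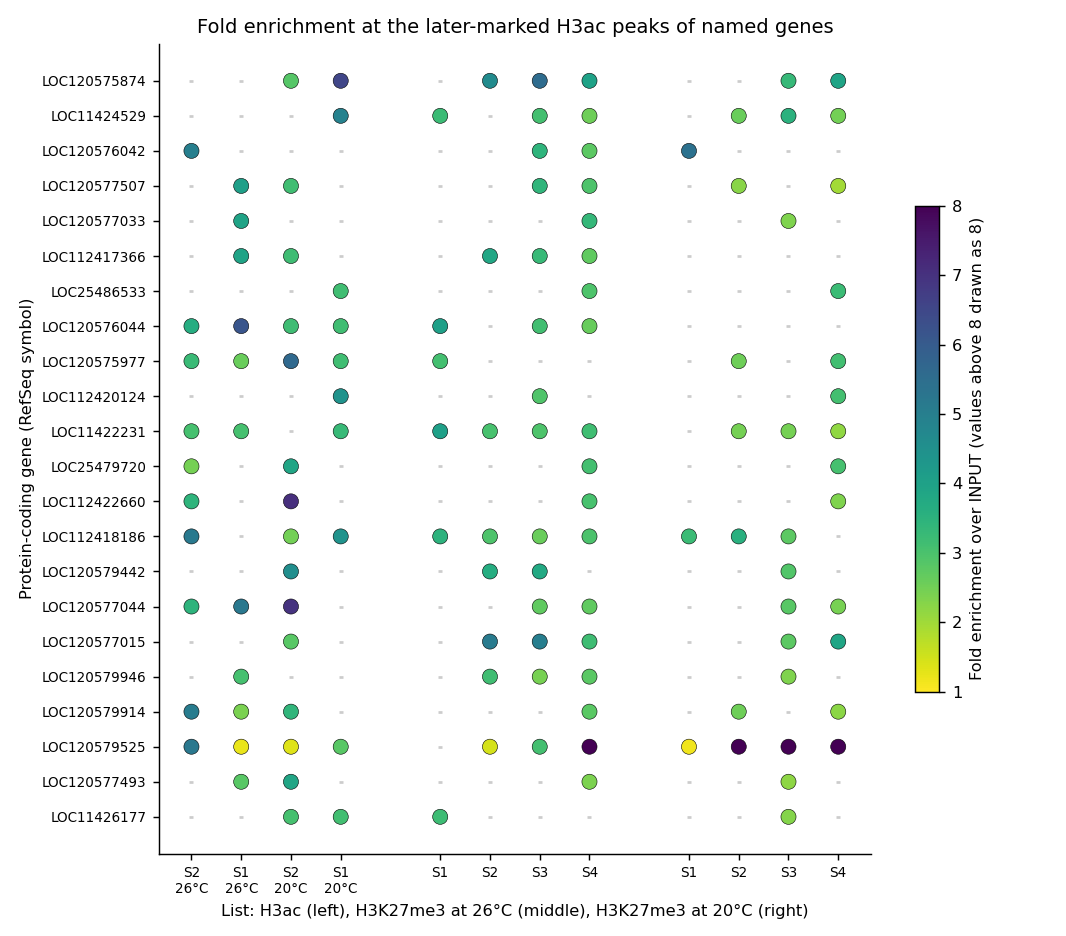
Fold enrichment over INPUT (colour, values above 8 drawn as 8) at the later-marked H3ac peaks of the 22 named protein-coding genes (vertical axis, RefSeq symbol) in the 4 H3ac lists, the 4 H3K27me3 lists of 26°C and the 4 of 20°C (horizontal axis). Dashes mark lists with no peak there, as in both S1 H3K27me3 lists of LOC120575874, LOC120577015 and LOC120577044.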

How the data were processed

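H3K27me3 and H3ac were profiled by ChIP-seq in 12 IP and 12 INPUT libraries. According to the study's script and methods, the authors trimmed reads with Trim Galore, mapped them with STAR to MtrunA17r5.0, kept reads with a single position, marked and removed duplicates with Picard and Samtools, and called peaks with MACS2 for each IP library against its own INPUT library, unpooled, in paired-end mode at a p-value of 0.01. Tool versions are not given in the sources used here. The authors deposited 1 peak list per IP library, which gives every peak a fold enrichment of IP over INPUT, a −log10 p-value and a −log10 q-value. H3K27me3 lists are in broad and H3ac lists in narrow format, whereas the script sets the broad option for both marks. How the H3ac lists were called is thus uncertain, which bears on their peak lengths and summits. These lists hold no depth, and duplicates and the threshold are already settled in them, so a place with fewer fragments or a shallower INPUT can lack a peak. The study's read table gives the INPUT of S1 at 20°C as the deepest of the H3ac set, and the part of depth in the size of that list was not tested.

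From the lists, overlaps of at least 1 bp were computed on chromosomes 1 to 8 with Python 3.11.15, NumPy 2.4.6 and pandas 2.3.3, tested on simulated peaks and checked against bedtools 2.31.1. The authors' group labels placed every sample, and 0 columns belonged to no sample. The position and type of each gene came from the RefSeq annotation of the same assembly, which here gives neither strand nor description, so gene spans and the 3 kb on both sides were used, and the lists of gene roles that had been planned were not applied. No genome of this build was used, so sequences are not shown. Later-marked peaks were compared with the other H3ac peaks of the same list by exact two-sided sign-flip permutation over the 4 lists (SciPy 1.17.1), adjusted over 7 properties by the Benjamini-Hochberg method (statsmodels 0.14.6). Shares carry Clopper-Pearson intervals. Figures were drawn with matplotlib 3.10.9.

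Named genes were, for each list, the 5 protein-coding genes with the highest value of the lower of the H3ac and the late H3K27me3 fold enrichment, and all protein-coding genes later-marked in 2 or more lists. Named regions were the 5 places later-marked in most lists and the 3 strongest peaks of each list. The peaks and these lists were chosen with earlier results of these data known. Alternatives were filters on both marks (−log10 p from 5 upwards, q-value up to 0.05, fold enrichment from 3 upwards), an overlap of 200 bp or of 0.5 of the H3ac peak, no H3K27me3 within 1 kb at the same stage, S3 or S4 alone or both, an equal number of peaks per H3K27me3 list, H3ac peaks merged within 1 kb, H3ac peaks under 1000 bp, the removal of peaks within 100 kb of an rRNA gene, and gene spans with 1 kb on each side. Comparisons with co-marked or unmarked peaks alone, without the list of S1 at 20°C, with peaks of 500 to 1000 bp, and with an equal number of peaks at the other temperature were added after seeing the data.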

Additional observations from a re-analysis of the deposited data

Results flagged for a closer look

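The share of H3ac peaks that were later-marked differed between S2 and S1 in opposite directions at the 2 temperatures. S2 minus S1 was −3.57 percentage points at 26°C and 8.58 points at 20°C. The share of later-marked peaks under H3K27me3 of the other temperature also went opposite ways, with S2 minus S1 at 10.4 points at 26°C and −0.987 points at 20°C. Each condition had 1 library, so neither difference between the temperatures was tested.

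Outside chromosomes 1 to 8, which the report does not use, H3ac peaks on other sequences of the assembly met the same rule. They were 8 of 40 for S2 at 26°C, 14 of 41 for S1 at 26°C, 5 of 62 for S2 at 20°C and 22 of 112 for S1 at 20°C.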

How the results depend on the processing

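No paired analysis was possible because each group had a single replicate. In the order S2 and S1 at 26°C, then S2 and S1 at 20°C, the later-marked peaks numbered 45, 94, 52 and 70 at a −log10 p of at least 5, 80, 174, 92 and 129 at a q-value up to 0.05, and 49, 96, 31 and 51 at a fold enrichment of at least 3, in each case with the filter on both marks. With H3K27me3 at both S3 and S4 they were 55, 143, 38 and 102. With S3 alone they were 91, 186 and 91 for S2 and S1 at 26°C and S2 at 20°C, and with S4 alone 96 and 194 for S2 and S1 at 20°C. With an equal number of H3K27me3 peaks per list they were 89 and 169 for S2 and S1 at 26°C. In all, 25 of 48 such numbers stayed within 1.5 times the reported one and 23 did not. Genes within 1 kb of a later-marked peak numbered 136 for S1 at 26°C and 139 for S1 at 20°C.

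Of the differences between later-marked and other peaks, the median fold enrichment turned to −0.102 under 1000 bp, −0.152 at 500 to 1000 bp and −0.129 against co-marked peaks. Against co-marked peaks, the difference in median length was −1839 bp, in overlap with another H3ac list −7.66 points and with H3K27me3 of the other temperature −8.78 points. The difference in median −log10 q was −1.44 against co-marked peaks, lower in 4 of 4 lists. It was 0.202 against unmarked peaks and −0.137 against all others. The causes were not tested. No comparison could reach a p under 0.125.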
